A study of Mus musculus with 64 samples.

Results

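Microglia that had refilled the brain after PLX3397 were compared with untreated microglia in adult mice of the genotype labelled RISP Het. The comparison took genotype, treatment and age from the sample labels. It took the 4 RISP Het repopulation libraries and replicates 1 to 4 of the RISP Het naive libraries, 8 of the 64 libraries of the series. Another 9 RISP Het naive libraries were not used. The labels do not set these 9 apart, and they were left out by a division of libraries read from the counts. RISP is the Rieske iron-sulfur protein, the subunit of respiratory complex III encoded by Uqcrfs1. Het, KO and WT are the label names of the genotypes, and the labels do not describe the alleles further, nor the drug's dose, the day of sampling, the sex of the mice or whether each replicate was a separate animal. The P values therefore measure the spread between these libraries, which may be technical. Microglia were sorted from whole brain as live cells stained for CD45.2 and CD11b; the gate on CD45 was not given. Stranded total RNA libraries were sequenced with single-end reads, and a deposited table gave counts per gene. All fold changes are repopulated against naive, and all levels are CPM, read counts scaled to each library's size, which are not corrected for gene length.

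PLX3397 (pexidartinib) inhibits the colony-stimulating factor 1 receptor (CSF1R), a kinase on which microglia depend for survival. Most microglia die during treatment, and after the drug is withdrawn the surviving cells divide and refill the niche. Macrophages at the borders of the brain, in the meninges, perivascular spaces and choroid plexus, also need CSF1R; they carry CD11b and CD45 and are marked by the mannose receptor Mrc1, the haemoglobin scavenger receptor Cd163 and the hyaluronan receptor Lyve1. Type I interferon, signalling through factors that include Stat2 and Irf9, induces antiviral genes and the MHC class I pathway, which displays peptides to CD8 T cells. MHC class II displays peptides to CD4 T cells and is at low levels in resting microglia.

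The 8 libraries held 12303172 to 14989416 counts each, and 0.0688 to 0.18% of these fell on the non-coding RNAs Gm26917 and Yam1. The first principal component, with 36.9% of the variance, separated the 4 naive libraries from the 4 repopulated ones. Each group held 1 male and 3 female libraries as read from Y-linked transcripts. The male ones were naive 1 and repopulated 4, so leaving out either also removed the only male library of its group. The microglial markers P2ry12, Tmem119, Cx3cr1, Sall1, Siglech, Fcrls and Csf1r were present in all 8 libraries. Some libraries carried more transcripts of other cells. Marker transcripts of choroid plexus epithelium summed to 2280 CPM in repopulated 1 and 1636 CPM in repopulated 3, against 357 CPM in repopulated 2 and between 57.9 and 171 CPM in repopulated 4 and the naive libraries. Endothelial markers summed to 1233 and 1518 CPM in naive 3 and 4 and to between 629 and 847 CPM in the other 6 libraries. Immediate early genes summed to 14740 CPM in repopulated 4 and to between 4061 and 5080 CPM in the other 7 libraries. Heat shock chaperones summed to 8699 CPM in repopulated 4, between 2673 and 4025 CPM in the other repopulated libraries and between 4588 and 5985 CPM in the naive ones.

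Uqcrfs1 and the genetic tools came first as a check of the labels. Uqcrfs1 was at 39.7, 24.5, 22.4 and 20.1 CPM in naive replicates 1 to 4 and at 30.2, 30.5, 30.5 and 37.0 CPM in repopulated replicates 1 to 4. WT libraries lay between 36.3 and 46.7 CPM when naive and between 48.8 and 67.2 CPM after repopulation, and KO libraries between 5.49 and 11.2 CPM. The library labelled Het naive 1 thus lay inside the WT naive range, while the other 3 Het naive libraries lay between the WT and KO ranges. It is called naive 1 below; without it 1841 genes were called in place of the 2383 given below, 12 of 12 border-associated macrophage markers were still lower, and 79 ribosomal protein genes, 29 interferon-responsive genes and 13 MHC class I genes were higher. The Het groups overlapped because of naive 1, and the difference did not pass the test (log2 fold change 0.30, SE 0.20, adjusted p = 0.333; edgeR quasi-likelihood test). Naive 1 and repopulated 4, each the highest of its group for Uqcrfs1, were the libraries read as male. All 5 WT naive libraries were read as male too, so sex runs along with the place of naive 1. The table also counts the transgenes CreERT2, a tamoxifen-dependent recombinase, and tdTomato, a red fluorescent reporter. CreERT2 was at 856, 823, 797 and 747 CPM in naive and 643, 562, 489 and 592 CPM in repopulated libraries, without overlap (-0.46, SE 0.08, adjusted p = 0.00516). tdTomato lay between 203 and 268 CPM in naive and between 205 and 328 CPM in repopulated libraries (0.16, SE 0.14, adjusted p = 0.48). The labels do not say which promoter drives the recombinase, nor whether tamoxifen was given.

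Of 12988 genes tested, 2383 (18.3%) differed at an adjusted p under 0.05. Of these, 1292 (9.95%) were higher and 1091 (8.4%) were lower in repopulated microglia, and the median log2 fold change of all genes tested was 0.01. Gene groups are read below against these shares. Border-associated macrophage markers and classical MHC class II genes were lower, and interferon-responsive genes, MHC class I and ribosomal protein genes were higher. Lists of 2 other cell types also had large medians, choroid plexus epithelium at 3.33 and endothelium at -1.69. Their counts changed when single libraries were left out. The choroid plexus list was added after values had been seen, and without repopulated 1 and 3 its median was 0.55. The count of called genes was 895 when naive 3 and 4 were left out (520 higher, 375 lower), and 1014 in a fit of all 64 libraries (604 higher, 410 lower). No gene called in the 8 libraries changed sign in either.

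**Figure D1:**
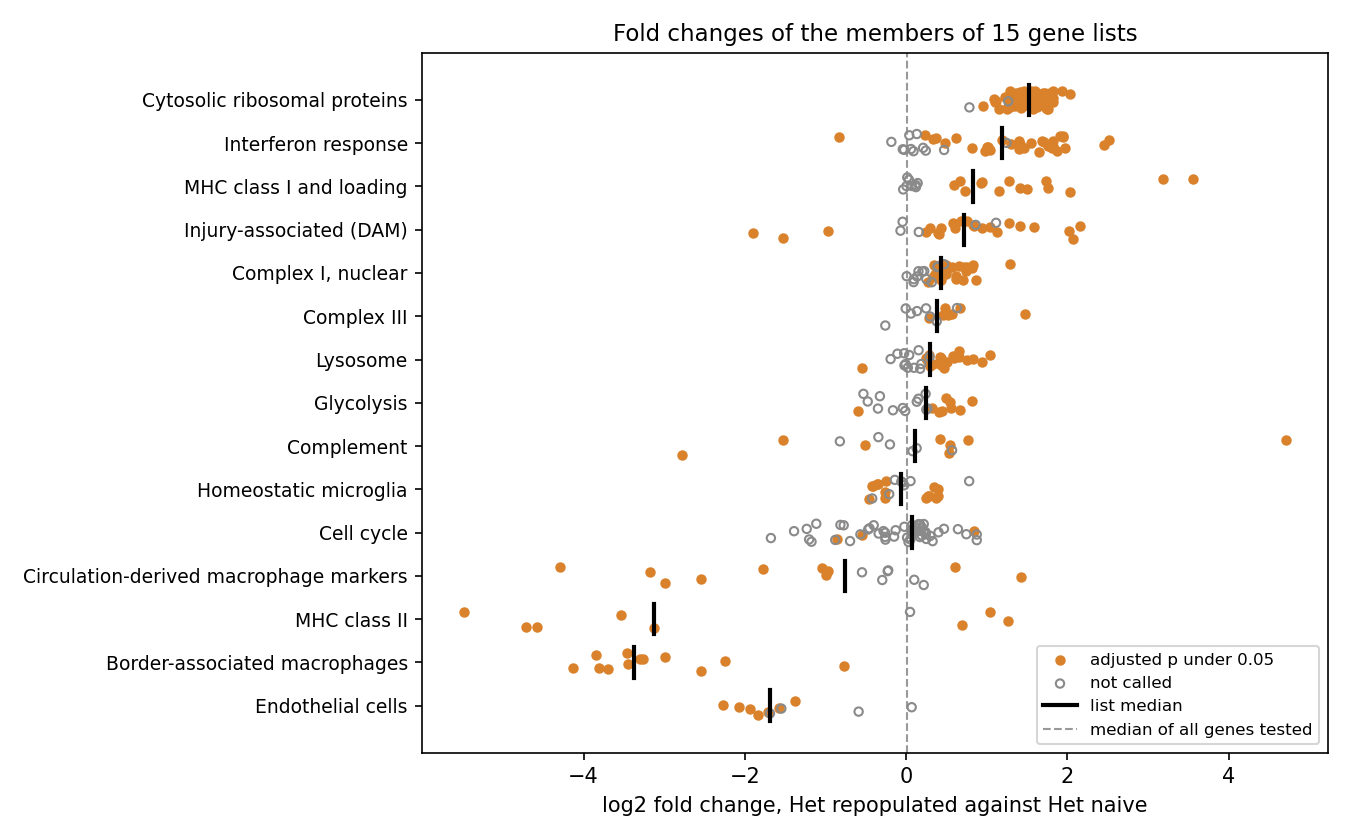
Log2 fold changes (horizontal axis) of the tested members of each gene list, 1 point per gene, filled where the adjusted p was under 0.05; black bars are list medians and the dashed line is the median of all genes tested, 0.01. Border-associated macrophage markers lie at the left, around a median of -3.38, and ribosomal protein genes at the right, around 1.52, while the homeostatic microglia list straddles 0.

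All 12 border-associated macrophage markers were lower in repopulated libraries, with no overlap between groups and a median log2 fold change of -3.38. Mrc1 was at 475, 319, 497 and 476 CPM in the naive libraries and at 39.5, 29.3, 30.5 and 23.9 CPM after repopulation (-3.81, SE 0.20, adjusted p = 2.15e-06). Cd163 was at 95.1, 68.8, 106.7 and 98.9 CPM and then at 5.55, 6.36, 6.18 and 2.57 CPM (-4.13, SE 0.27, adjusted p = 8.92e-06). The lowest naive library, replicate 2, stood far above the highest repopulated one for both receptors. Lyve1 was at 32.9, 27.4, 47.4 and 43.9 CPM against 2.97, 1.61, 4.45 and 2.33 CPM (-3.69, SE 0.31, adjusted p = 5.86e-05). F13a1, the clotting factor XIII subunit made by tissue macrophages, was at 126.7, 100.0, 153.6 and 149.3 CPM against 17.9, 8.48, 12.1 and 8.99 CPM (-3.45, SE 0.26, adjusted p = 2.38e-05). Pf4 (platelet factor 4, a chemokine), Cbr2 (carbonyl reductase), Ms4a7, Colec12 and Cd209f (lectin receptors) and Clec12a fell by 2.54 to 3.84 on the log2 scale, and the folate receptor Folr2 fell by 2.25. The scavenger receptor Stab1 had the smallest change, from 1793, 1339, 1513 and 1394 CPM to 931, 943, 952 and 641 CPM (-0.77, SE 0.14, adjusted p = 0.00533). Mgl2, a galactose lectin of macrophages and dendritic cells outside the list, was among the 10 largest falls, from 24.4 to 38.5 CPM down to 0.64 to 2.73 CPM (-4.03, SE 0.36, adjusted p = 8.75e-05). In bulk samples, fewer cells of a type and less RNA per cell cannot be told apart.

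The classical MHC class II genes fell alongside them. H2-Aa (chr17:34282744-34287823, minus strand, GRCm38), the alpha chain of I-A, was at 206, 261, 258 and 280.1 CPM in naive and 11.8, 8.65, 12.5 and 8.34 CPM in repopulated libraries (-4.57, SE 0.17, adjusted p = 1.23e-06). H2-Ab1, its beta chain, was at 286, 320, 314 and 370.3 CPM against 31.0, 40.2, 38.8 and 34.2 CPM (-3.13, SE 0.12, adjusted p = 1.23e-06). Cd74, the invariant chain that escorts class II molecules, was at 677, 725, 772 and 882 CPM against 62.1, 66.3, 67.9 and 61.9 CPM (-3.54, SE 0.10, adjusted p = 5.99e-07). No naive library overlapped a repopulated one for any of these genes. H2-Eb1, the I-E beta chain, fell by 4.71 (SE 0.22, adjusted p = 1.58e-06). Ciita, the transactivator that switches these genes on, was at 5.87, 7.17, 9.42 and 11.9 CPM in naive libraries and at 0.16, 0.42, 0.14 and 0 CPM after repopulation, where 3 counts correspond to at most 0.254 CPM (adjusted p = 0.000289). The rest of the pathway did not follow. The peptide exchange factor H2-DMa (0.69, SE 0.06, adjusted p = 8.85e-05), its modulator H2-Oa (1.27, SE 0.09, adjusted p = 1.44e-05) and the protease Ctss (1.04, SE 0.06, adjusted p = 4.44e-06) rose, and H2-DMb1 was not called (0.05, SE 0.09, adjusted p = 0.744). Of 9 class II genes, 5 fell and 3 rose. The 5 that fell moved with the 12 border-associated macrophage markers in these libraries, and how far cells of that type set their levels was not tested.

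**Figure D2:**
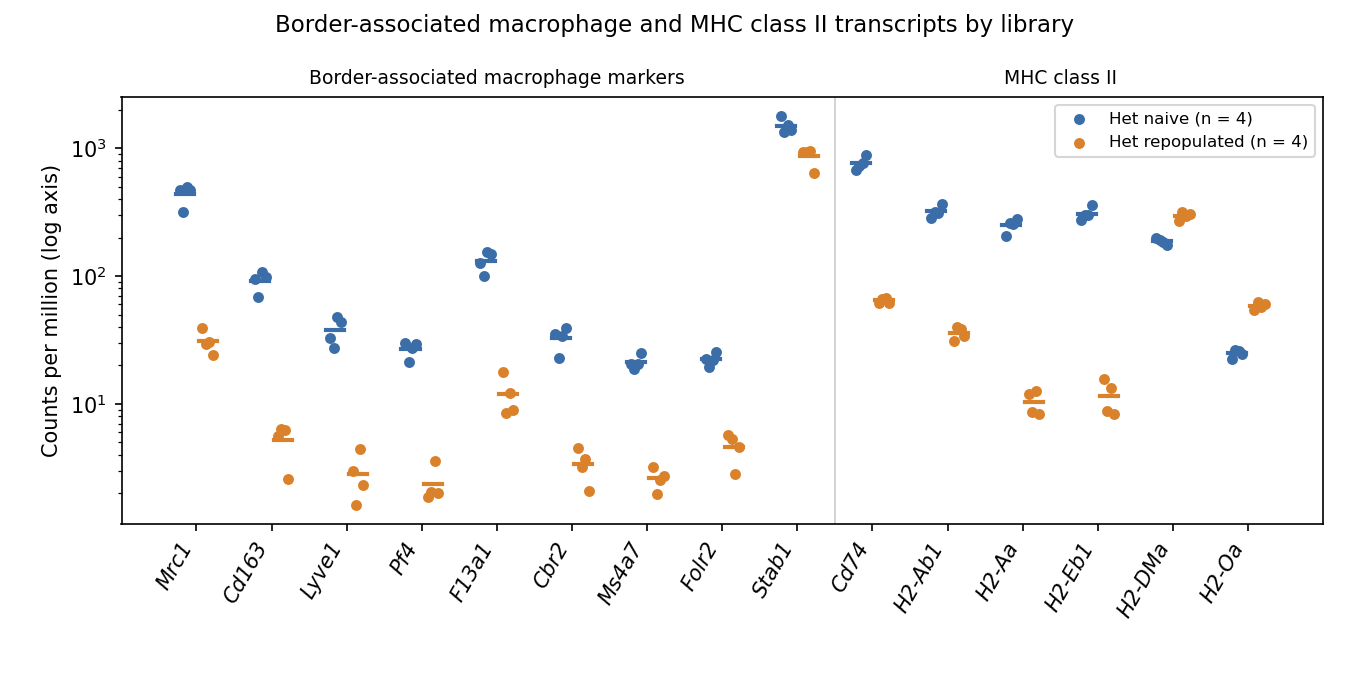
Levels of border-associated macrophage markers and MHC class II genes in CPM (log axis), 1 point per library, with short bars for the mean of the 4 libraries of each group. For each gene shown at the left, and for Cd74, H2-Ab1, H2-Aa and H2-Eb1, all repopulated points lie below all naive points, whereas H2-DMa and H2-Oa lie above.

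Markers of blood-derived cells moved in both directions. Of 7 monocyte markers tested, 3 were lower and 1, Plac8, was higher (2.54, SE 0.48, adjusted p = 0.00651); 1 was lower without naive 3, without naive 4 or without repopulated 4. Of 8 neutrophil markers 1 fell and 1 rose. The fall was lost without naive 1, naive 3, repopulated 2 or repopulated 3. Csf3r, the receptor for granulocyte colony-stimulating factor, was the gene that rose. It went from between 249.8 and 321 CPM to between 434 and 516 CPM (0.73, SE 0.08, adjusted p = 0.000312). The whole neutrophil list summed to between 267.6 and 343.2 CPM in naive and between 435.5 and 541 CPM in repopulated libraries. Csf3r thus made up most of that sum, and which cells carried it was not tested. Ccr2, the chemokine receptor of classical monocytes, was at 21.9, 16.3, 21.3 and 24.5 CPM in naive and 4.02, 1.78, 5.24 and 2.81 CPM in repopulated libraries (-2.56, SE 0.30, adjusted p = 0.000496). Of 16 tested genes described as higher in brain macrophages that come from the circulation, 8 were lower and 2 higher. Among those that fell were the membrane protein Ms4a4a, from 12.8, 8.41, 13.8 and 11.5 CPM to 0.48, 0.59, 0.72 and 0.48 CPM (-4.30, SE 0.26, adjusted p = 5.62e-06), and the integrin Itga4 (-1.78, SE 0.22, adjusted p = 0.000622). Pilra (1.43, SE 0.17, adjusted p = 0.000468) and Apobec3 (0.61, SE 0.09, adjusted p = 0.00177) rose; the second is also an antiviral interferon-responsive gene. Ly6c2, another classical monocyte marker, was not called and lay at 0.73 to 1.03 CPM in naive and 0.57 to 1.29 CPM in repopulated libraries. Ms4a7 and Clec12a of this list are border-associated macrophage markers too. The T cell coreceptor Cd4, which some macrophages also carry, fell from between 7.51 and 12.5 CPM to between 0.40 and 1.15 CPM (-3.61, SE 0.35, adjusted p = 0.000136). Of the 13 lymphocyte markers, 2 passed the filter on low counts.

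Most interferon-responsive genes rose. Of 43 measured, 31 were higher and 1 was lower, with a median log2 fold change of 1.19, and the same 31 to 1 split held for groups that did not overlap (11.6% of all genes tested lay wholly higher and 12.7% wholly lower by that measure). The proximal promoters of some of these genes carry the interferon-stimulated response element, a pair of GAAA repeats. The motif, GAAA, then any 2 bases, then GAAA, was searched on both strands (TTTC, any 2 bases, TTTC on the other) in the 250 bases before the start. It was present for 17 of the 32 list members matched in the RefSeq promoter table (53.1%). Among the 22 matched members that were called higher it was present for 12 (54.5%). Of all 27025 genes with a promoter in that table, 3.46% had it. The list was made of known interferon-responsive genes, and its members called higher had the motif about as often as the whole list. A gene was counted if any of its promoters held the motif. The 160 bases before the start are shown for 4 effectors that rose and for Gbp7, the 1 list member that fell, because all 5 carry the motif; capitals mark it, overlapping copies run together, and each sequence is RefSeq on GRCm38.p6, 5′ to 3′ on the gene's strand.
Ifit3 (chr19:34583369-34583528, plus strand): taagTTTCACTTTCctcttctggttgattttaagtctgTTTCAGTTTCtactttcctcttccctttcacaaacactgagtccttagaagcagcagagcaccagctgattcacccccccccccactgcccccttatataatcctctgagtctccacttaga
Ifit1 (chr19:34640729-34640888, plus strand): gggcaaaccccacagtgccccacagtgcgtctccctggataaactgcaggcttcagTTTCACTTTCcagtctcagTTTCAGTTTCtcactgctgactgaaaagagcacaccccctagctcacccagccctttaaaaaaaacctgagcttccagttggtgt
Isg15 (chr4:156200819-156200978, minus strand): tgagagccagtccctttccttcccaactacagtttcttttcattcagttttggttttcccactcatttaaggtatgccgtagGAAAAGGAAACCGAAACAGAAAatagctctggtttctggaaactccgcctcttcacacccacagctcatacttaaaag
Oas1a (chr5:120907526-120907685, minus strand): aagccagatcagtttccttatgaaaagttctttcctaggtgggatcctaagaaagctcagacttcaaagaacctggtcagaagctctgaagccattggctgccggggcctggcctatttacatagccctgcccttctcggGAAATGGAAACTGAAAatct
Gbp7 (chr3:142530176-142530335, plus strand): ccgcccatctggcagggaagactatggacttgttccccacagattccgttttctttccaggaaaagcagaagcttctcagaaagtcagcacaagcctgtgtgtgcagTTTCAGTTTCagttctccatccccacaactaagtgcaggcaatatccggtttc
A match describes these letters and not a bound site.

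Among the effectors, Ifit2, which restrains translation of viral RNA, was at 12.96, 14.1, 14.7 and 15.9 CPM in naive and 50.2, 40.8, 50.5 and 49.9 CPM in repopulated libraries (1.76, SE 0.11, adjusted p = 7.41e-06). Ifit3, from the same family on chromosome 19, was at 18.8, 15.2, 13.1 and 18.1 CPM against 55.7, 51.2, 66.2 and 51.3 CPM (1.82, SE 0.14, adjusted p = 3.1e-05). Ifit1 had the same order at a lower level, with 3.86 to 5.96 CPM in naive and 10.7 to 15.2 CPM in repopulated libraries (1.302, SE 0.19, adjusted p = 0.00186). Each of the 3 genes was higher in every repopulated library than in any naive one. Isg15, a ubiquitin-like protein conjugated to targets during the response, was at 3.89, 5.03, 4.23 and 4.24 CPM against 11.1, 8.74, 13.4 and 11.7 CPM (1.40, SE 0.19, adjusted p = 0.001), and Usp18, the protease that removes it, rose by 1.64 (SE 0.16, adjusted p = 0.000149). Oas1a, a synthetase that activates RNase L, was at 11.1, 11.99, 10.7 and 16.7 CPM against 41.9, 37.5, 48.0 and 47.9 CPM (1.82, SE 0.16, adjusted p = 8.61e-05). The DNA sensor family member Ifi204 (1.91, SE 0.13, adjusted p = 1.48e-05) and the small membrane protein Ifi27l2a (2.52, SE 0.20, adjusted p = 4.41e-05) rose, the second the most of the list. Lgals3bp, a secreted glycoprotein, was at 325, 287, 289 and 318 CPM against 1054, 1137, 1180 and 1317 CPM (1.97, SE 0.08, adjusted p = 1.23e-06), the smallest p of the list.

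Of 10 sensors and factors upstream, 7 rose, against 24 of the 33 effectors. Irf7, the factor that amplifies interferon production, ranged from 6.82 to 23.2 CPM and from 28.3 to 45.8 CPM, with naive 4 the highest of its group (1.55, SE 0.36, adjusted p = 0.0173). Stat2 (0.48), Irf9 (0.34) and the receptor chain Ifnar2 (0.24) rose by small amounts, and the RNA sensor Ifih1 by 1.04. Irf1 (0.06, SE 0.10, adjusted p = 0.717), Ddx58 and Ifnar1 were not called. Guanylate-binding proteins and immunity-related GTPases of the list did not share the rise. Gbp7, a guanylate-binding protein, was at 59.4, 54.2, 56.8 and 62.7 CPM in naive and 29.7, 39.6, 29.7 and 29.7 CPM in repopulated libraries (-0.83, SE 0.11, adjusted p = 0.00115). Gbp2, Gbp3, Igtp and Iigp1 lay between -0.04 and 0.24 and were not called. The interferon list had 26 members higher without naive 3 and 4, 27 without repopulated 1 and 3, and 23 in the fit of all 64 libraries, with 1 member lower in each.

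MHC class I rose at both its chains. All 8 heavy chain genes measured were higher. H2-K1 was at 525, 534, 538 and 507 CPM in naive and 1573, 1882, 1604 and 1900.0 CPM in repopulated libraries (1.76, SE 0.07, adjusted p = 1.23e-06), and H2-D1 at 649, 677, 689 and 696 CPM against 2324, 3049, 2518 and 2947 CPM (2.03, SE 0.09, adjusted p = 1.53e-06). B2m, the light chain shared by all class I molecules, was at 1284, 1340.0, 1211 and 1257 CPM against 3240.0, 3368, 3242 and 3375 CPM (1.41, SE 0.04, adjusted p = 8.7e-07). The non-classical gene H2-Q7 (chr17:35439155-35443773, plus strand, GRCm38) had a larger fold, from 8.60, 11.3, 9.61 and 12.4 CPM to 94.5, 139, 121 and 128 CPM (3.56, SE 0.16, adjusted p = 1.58e-06), followed by H2-Q6 (3.19, SE 0.16, adjusted p = 1.9e-06). The repopulated libraries lay above the naive ones for every heavy chain. H2-Q6 and H2-Q7 are near-identical copies, as are other class I genes, and how the counting divided shared reads is not given, so the split between them is uncertain. Of 14 genes for the light chain, peptide supply and loading, 6 rose. The peptide pump subunit Tap1 (1.27, SE 0.07, adjusted p = 3.09e-06), the immunoproteasome subunits Psmb8 (0.66) and Psmb9 (0.59), the proteasome activator Psme1 (0.94) and the transactivator Nlrc5 (1.15, SE 0.29, adjusted p = 0.0249) were the others, while Tap2 (0.12), Tapbp (0.12), Calr (0.01) and Pdia3 (0.04) were not called. The whole list of 22 had 14 rises and no fall, with a median of 0.83.

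**Figure D3:**
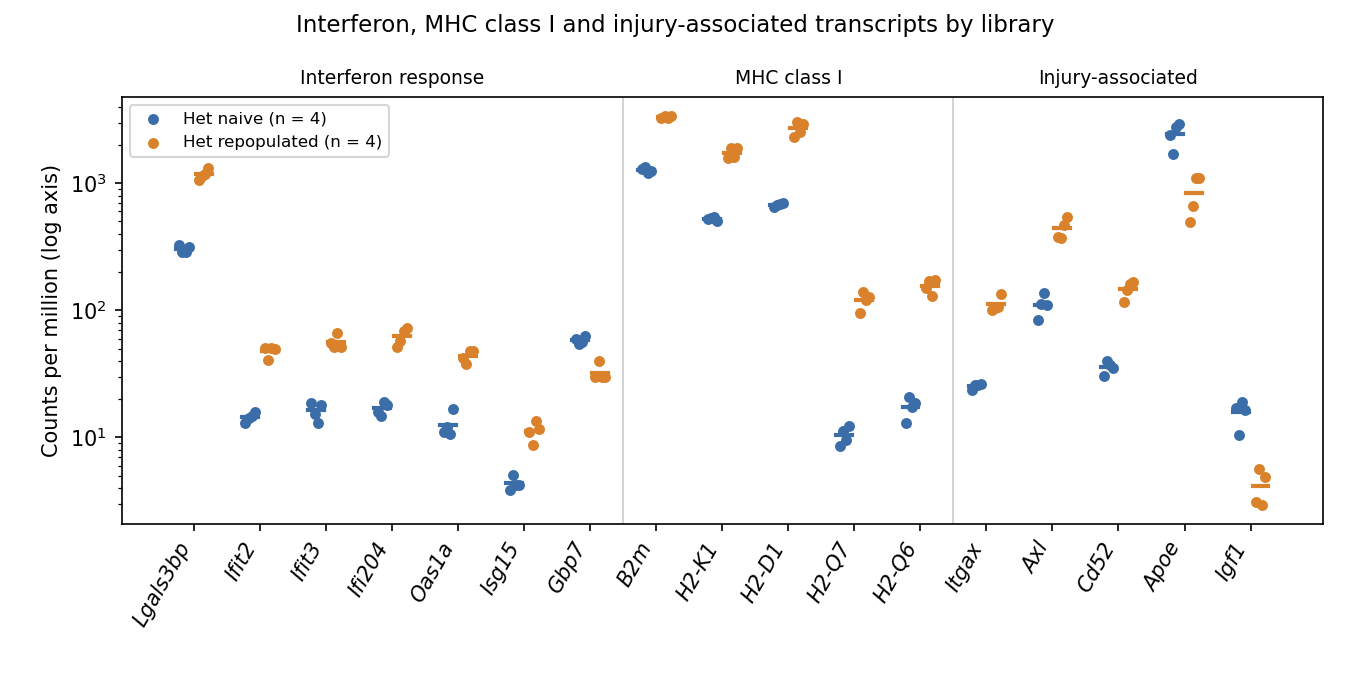
Levels of interferon-responsive, MHC class I and injury-associated genes in CPM (log axis), 1 point per library, with short bars for group means (4 libraries each). Repopulated points lie above naive points for every interferon and class I gene shown except Gbp7, and below them for Apoe and Igf1.

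Genes of injury-associated microglia, a programme first described around amyloid plaques and in degeneration, divided. Of 28 tested, 20 were higher and 3 lower, with a median of 0.72. The integrin Itgax (CD11c) was at 23.7, 26.0, 25.9 and 26.3 CPM in naive and 101.5, 103.5, 106.7 and 135 CPM in repopulated libraries (2.16, SE 0.10, adjusted p = 1.63e-06). Axl, a receptor for dying cells that interferon also induces, was at 83.7, 113, 136 and 109.8 CPM against 379, 369.9, 471 and 547 CPM (2.02, SE 0.17, adjusted p = 6.49e-05). Cd52, a small surface glycoprotein, rose from between 30.5 and 39.6 CPM to between 116 and 166 CPM (2.07, SE 0.13, adjusted p = 6.22e-06). In all 3 genes the groups were separate. The cystatin Cst7 (1.59, SE 0.15), the lectin receptor Clec7a (1.28, SE 0.11), the signalling adaptor Tyrobp (1.03, SE 0.05) and the cathepsins Ctsl (0.83) and Ctsb (0.41) rose as well. Apoe, a lipid carrier of the same programme, was lower, at 2397, 1699, 2782 and 2946 CPM in naive and 499, 666, 1090.0 and 1102 CPM in repopulated libraries (-1.52, SE 0.27, adjusted p = 0.00497), a call lost when naive 3 and 4 were left out. The growth factor Igf1 (-1.90, SE 0.27, adjusted p = 0.00154) and the lysozyme Lyz2 (-0.97, SE 0.12, adjusted p = 0.000607) were lower too. These 3 genes are also abundant in macrophages, whose markers fell in the same libraries; their part was not tested. Gpnmb, Fabp5, Lpl, Ccl6 and Lgals3, other members of the list, were not called. The fit of all 64 libraries called 12 members higher and 3 lower.

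The homeostatic microglial genes shifted by small amounts in both directions. Of 23, 7 were higher and 8 lower, with a median of -0.06. The fractalkine receptor Cx3cr1 was at 4718, 4589, 4446 and 4389 CPM in naive and 3374, 3335, 2828 and 3338 CPM in repopulated libraries (-0.46, SE 0.06, adjusted p = 0.000943). The purinergic receptor P2ry12 (-0.35, SE 0.08, adjusted p = 0.0159), P2ry13 (-0.36), the factors Mef2c (-0.43) and Sall1 (-0.24) and Fcrls (-0.41) were lower. The lipid receptor Trem2 (0.40), Siglech (0.39), Olfml3 (0.37) and Cst3 (0.35, SE 0.05, adjusted p = 0.00208) were higher. Tmem119 (-0.04, SE 0.05, adjusted p = 0.601) and the drug's target Csf1r were not called. Csf1r lay between 14250.0 and 15710.0 CPM in naive and between 13510.0 and 14950.0 CPM in repopulated libraries (-0.06, SE 0.04, adjusted p = 0.395), so the groups overlapped. Its ligand gene Csf1 was higher (0.60, SE 0.17, adjusted p = 0.0352), and the factor Maf lower (-0.50, SE 0.07, adjusted p = 0.00179). The number of homeostatic genes lower was 8 and dropped to 5, 4, 5 and 4 without naive 1, naive 3, repopulated 3 and repopulated 4, and 1 higher and 2 lower were left without naive 3 and 4.

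Of 14 complement genes, 5 rose and 3 fell. Cfb, factor B of the alternative pathway, was near the floor in naive libraries, at 0.89, 0.41, 0.71 and 0.51 CPM, and at 11.8, 17.7, 22.9 and 13.3 CPM after repopulation (4.72, SE 0.32, adjusted p = 1.21e-05). The C1q chains, which start the classical pathway, rose by less: C1qb went from between 2545 and 2890.0 CPM to between 3975 and 5029 CPM (0.77, SE 0.07, adjusted p = 0.000104), C1qa by 0.55 and C1qc by 0.53. Properdin (Cfp, -1.53, SE 0.32, adjusted p = 0.0111) and the receptors C5ar1 (-0.51) and Cd93 (-2.78, SE 0.41, adjusted p = 0.00173) fell. Of 13 chemokine ligands, 8 rose and 1 fell; over ligands and receptors together the 8 rises became 3 without naive 3 and 4, and 3 in the fit of all 64 libraries. Ccl5, an attractant of T cells and monocytes, was at 3.14, 1.65, 1.54 and 2.19 CPM against 9.33, 12.3, 16.7 and 12.4 CPM (2.604, SE 0.28, adjusted p = 0.000289), and Ccl12, a ligand of CCR2, at 13.8, 17.1, 16.9 and 15.9 CPM against 33.9, 45.8, 39.3 and 58.9 CPM (1.51, SE 0.17, adjusted p = 0.000366). Ccl3 (1.86, SE 0.37, adjusted p = 0.00842) reached 253 CPM in repopulated 4 and 67.5 to 104.3 CPM in the other repopulated libraries, against 32.6 to 38.0 CPM in naive ones. Repopulated 4 also held the highest Fos, 1653 CPM against 297 to 461 CPM in the other 7, and the highest Hspa1a, 2451 CPM against 154 to 729.6 CPM; the part of these stress transcripts in the chemokine values was not tested. Of 7 chemokine receptors, none rose and 3 fell: Ccr2, Ccr1 (-0.997, SE 0.16, adjusted p = 0.00325) and Cx3cr1.

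Genes for cytokines and innate receptors moved in both directions. In the NF-kB and cytokine list 4 of 20 rose and 1 fell, with 3 falls without repopulated 4 and 1 rise without naive 3 and 4. Of 17 Toll-like and pattern receptor genes 4 rose and 2 fell, and 2 rose and none fell without naive 3 and 4. Il6 was at 1.501, 2.55, 1.60 and 1.32 CPM in naive and 7.72, 4.92, 5.67 and 5.30 CPM in repopulated libraries (1.79, SE 0.29, adjusted p = 0.00318), and Tnfsf13b (BAFF, a survival factor of B cells) at 13.7, 11.8, 12.2 and 11.5 CPM against 23.8, 28.8, 25.1 and 26.8 CPM (1.12, SE 0.10, adjusted p = 0.000108). Tnf and Il1b overlapped and were not called (-0.10, SE 0.41, adjusted p = 0.899, and 0.94, SE 0.65, adjusted p = 0.353). The bacterial lipoprotein receptor Tlr2 rose (0.78, SE 0.10, adjusted p = 0.000943), as did Tlr1, Cd180 and its partner Ly86, while Tlr8 (-3.09, SE 0.59, adjusted p = 0.00704) and the adaptor Myd88 (-0.38, SE 0.09, adjusted p = 0.0153) fell. Of 6 TAM receptors and bridging ligands, 2 rose and 3 fell. Axl and the bridging protein Mfge8 (0.51, SE 0.12, adjusted p = 0.0156) rose, and the receptor Mertk (-0.33, SE 0.06, adjusted p = 0.00526), the ligand Pros1 (-0.24, SE 0.07, adjusted p = 0.047) and the ligand Gas6 (-0.70, SE 0.10, adjusted p = 0.00162) fell. Gas6 was at 339, 243, 315 and 311 CPM in naive and 195, 186, 170.4 and 176 CPM in repopulated libraries, with no overlap. In the BCL2 family of death regulators 6 of 15 rose and none fell, with 3 rises without naive 1, naive 3, naive 4 or repopulated 2, and 1 fall without repopulated 4. Among the 6 were the anti-death gene Bcl2a1a (1.27, SE 0.19, adjusted p = 0.00186), whose near-identical paralogs Bcl2a1b and Bcl2a1d rose too, and the pro-death gene Bbc3 (1.03, SE 0.16, adjusted p = 0.00276). The Bcl2a1b call was lost in those same 4 cases, and reads of the paralogs may be shared.

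Division genes did not move as a group. Of 55 cell cycle genes tested, 1 was higher and 2 were lower, and none of the 24 genes of G2 and mitosis was called. Mki67 was at 3.21, 2.83, 9.93 and 8.70 CPM in naive and 1.85, 3.14, 3.95 and 2.25 CPM in repopulated libraries (-1.11, SE 0.47, adjusted p = 0.137), and Top2a at 3.96 to 15.5 CPM against 4.38 to 8.52 CPM (-0.81, SE 0.42, adjusted p = 0.213). Both were highest in naive 3 and 4. The G1 cyclin Ccnd1 was lower, at 166, 196, 220.4 and 197 CPM against 85.9, 108.7, 102.8 and 125 CPM (-0.86, SE 0.12, adjusted p = 0.0016), without overlap. Cdkn2c, an inhibitor of cyclin D kinases, was higher (0.84, SE 0.23, adjusted p = 0.0322), a call that was lost when any 1 library other than naive 2 was left out. Without naive 1 the list had 5 falls and no rise. Immediate early genes had 1 rise and 1 fall of 19 with a median of 0.64; none was called without naive 3, repopulated 2 or repopulated 3, and without repopulated 4 they had 1 rise and 2 falls with a median of -0.05. Heat shock chaperones had 1 rise and 3 falls of 13 with a median of -0.21, and without repopulated 4 they had 1 rise and 5 falls with a median of -0.60. Rises and falls were 2 and 2 of 27 for ATF4 targets and regulators, 1 and 1 of 22 for cholesterol synthesis and 1 and 2 of 13 for cholesterol efflux. The CSF1R axis list had 4 rises and 1 fall of 11, with 2 rises without naive 2, without naive 3 or without repopulated 1, and 1 in the fit of all 64 libraries.

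Transcripts for lysosomes and respiration were higher in many members by small folds. In the lysosome list 19 of 32 rose and 1 fell, with a median of 0.29; the enzymes accounted for 13 of the 19. Ctsh, a cathepsin, was at 582, 559, 559 and 511 CPM in naive and 990.1, 1082, 992 and 1097 CPM in repopulated libraries (0.94, SE 0.06, adjusted p = 4.71e-06), and Npc2, which binds cholesterol in the lysosome, rose by 0.65 (SE 0.05, adjusted p = 3e-05). Tfe3, a transcription factor for lysosomal genes, was the 1 that fell (-0.55, SE 0.07, adjusted p = 0.000945). For complex I, 25 of 37 nuclear subunit genes rose and none fell (median 0.43), led by Ndufa6 at 16.8, 21.7, 18.4 and 21.4 CPM against 45.7, 47.9, 46.0 and 48.0 CPM (1.29, SE 0.10, adjusted p = 4.4e-05). For complex III, which holds RISP, 7 of 15 genes rose and none fell. Uqcrh, its hinge subunit, was at 27.6, 35.4, 26.2 and 25.8 CPM against 73.2, 77.4, 76.5 and 86.1 CPM (1.47, SE 0.11, adjusted p = 2.67e-05), far from the overlap seen for Uqcrfs1. Among 13 genes of mitochondrial DNA, 5 rose, the largest mt-Co3 (0.75, SE 0.12, adjusted p = 0.00334). In glycolysis 8 of 21 rose and 1 fell (4 rises without naive 3 and 4, and 3 in the fit of all 64 libraries), among them Gpi1 (0.66, SE 0.07, adjusted p = 2e-04) and the lactate exporter Slc16a3 (0.82, SE 0.10, adjusted p = 0.000752). Calls of single respiratory genes rest on all 8 libraries: complex I had 7 rises without naive 3 and 4, 9 without repopulated 1 and 3, 16 without naive 3, and 6 in the fit of all 64 libraries. Complex III had 4 without naive 4 or without repopulated 3, 3 without naive 3 and 4 or without repopulated 1 and 3, and 1 in the fit of all 64. The mitochondrial DNA genes had none without naive 3 and 4, 1 rise without naive 3, 2 without naive 4, repopulated 1 or repopulated 3, and 3 without repopulated 2.

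Nearly all ribosomal protein genes rose. The 81 genes with symbols of cytosolic ribosomal proteins were grouped after their values had been seen, so their count is a description. Of these, 79 were higher, none was lower, and the median was 1.52. They summed to 18780, 19850, 17680 and 18350 CPM in naive and to 46180, 51120, 51240 and 56280 CPM in repopulated libraries. The groups were separate, and Rplp0 followed the sum. Rplp0, of the large subunit's stalk, was at 490.1, 548, 479 and 498 CPM against 1227, 1362, 1319 and 1557 CPM (1.47, SE 0.08, adjusted p = 2.43e-06). Gas5, a non-coding host of small nucleolar RNAs whose transcript, like those of ribosomal proteins, carries a 5′ terminal oligopyrimidine tract, was at 22.99, 27.2, 20.6 and 20.7 CPM against 72.6, 94.8, 92.5 and 111 CPM (2.05, SE 0.14, adjusted p = 1.28e-05). Of 10 tested small nucleolar RNA hosts, grouped in the same way, 5 rose and none fell. Each alternative fit that was run also had 79 rises, and reads of ribosomal protein genes may be shared with their processed pseudogenes.

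Fold change also varied with gene length over the whole table, which touches the ribosomal and respiratory genes because they are short. All genes with a length were cut into 5 equal groups by exon length, and the ribosomal protein genes were then left out. The median log2 fold change ran 0.23, 0.06, -0.01, -0.06 and -0.10 from the shortest to the longest. The share of genes called higher was 18.4% in the shortest and 3.98% in the longest. The median exon length was 1739 bases for the ribosomal protein genes, 1569 for complex I, 3776 for the interferon list and 4957 for the border-associated macrophage list. Other lists with more rises than falls were short too. Chemokines and receptors were at 2286, injury-associated genes at 2494, the BCL2 family at 2558, MHC class I at 2913 and complement at 2938. MHC class II, with 5 falls and 3 rises, was at 1944. The ribosomal median of 1.52 lay above the 0.23 of the shortest group, and the complex I median of 0.43 lay nearer to it. What part of the differences in the respiratory or other lists goes with length was not tested.

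**Figure D4:**
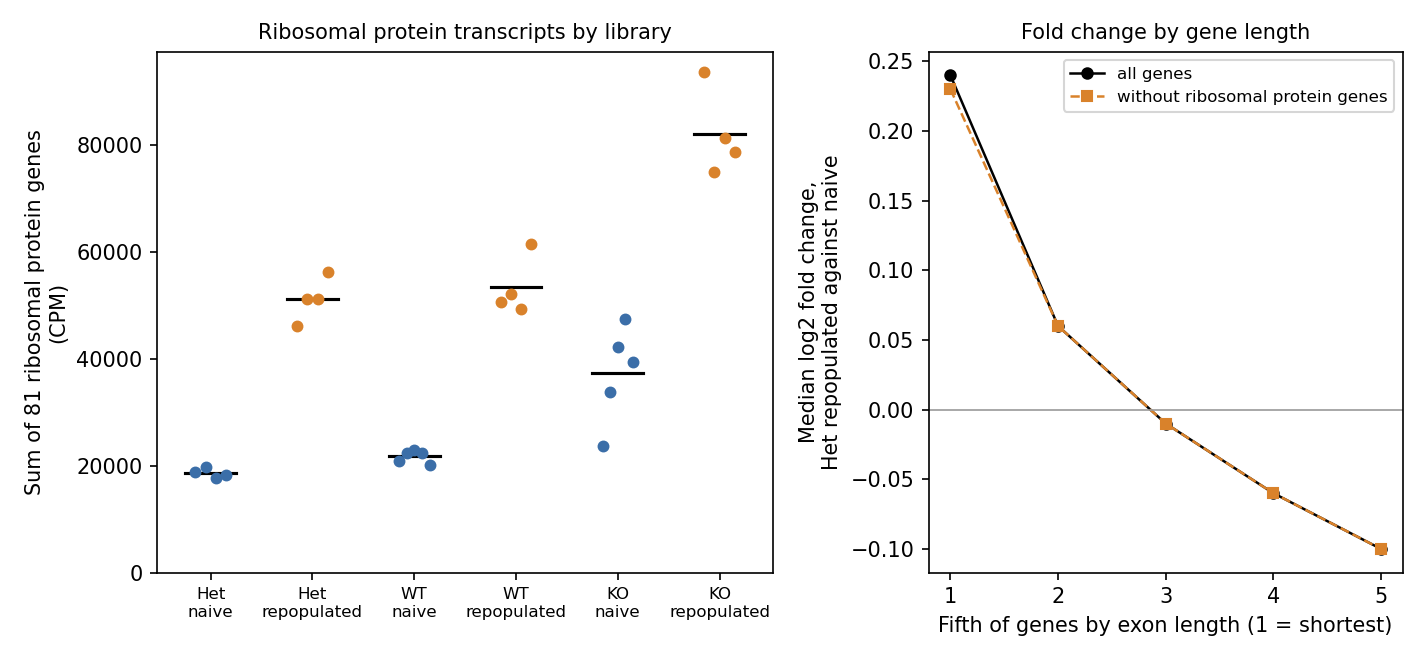
Left, the sum of 81 ribosomal protein genes in CPM 1 point per library with group means as lines; Het repopulated libraries lie between 46180 and 56280 CPM and Het naive ones between 17680 and 19850 CPM. Right, the median log2 fold change of Het repopulated against naive in 5 equal groups of genes by exon length, from 0.24 in the shortest to -0.10 in the longest over all genes.

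Among the largest rises were genes of the choroid plexus epithelium, the tissue that secretes cerebrospinal fluid, and these followed single libraries. Ttr, which encodes the thyroid hormone carrier transthyretin, was at 1152, 184, 864 and 14.0 CPM in the repopulated libraries and at 7.78, 15.98, 12.5 and 40.8 CPM in the naive ones (4.88, SE 1.17, adjusted p = 0.0205). Kl, the anti-ageing co-receptor klotho, was at 70.7, 9.08, 35.8 and 0.24 CPM against 1.03 to 3.14 CPM (4.07, SE 1.16, adjusted p = 0.0395), and Igfbp2 at 51.9, 6.79, 31.0 and 1.93 CPM against 1.501 to 3.44 CPM (3.33, SE 0.89, adjusted p = 0.0306). In repopulated 4, Ttr and Igfbp2 lay among the naive values and Kl lay below them, so the groups overlapped, and repopulated 1 and 3 stood apart. Without repopulated 1 and 3 none of the 11 tested choroid plexus genes was called. Kl and Igfbp2 were also lost without any 1 naive library, or without repopulated 1 or 3, and Ttr without naive 1, 2 or 3. Largest rises that did not follow these libraries included the ganglioside synthase St8sia1 at 7.37, 1.45, 1.47 and 4.31 CPM in naive and 23.1, 27.7, 16.6 and 37.5 CPM in repopulated libraries (2.88, SE 0.51, adjusted p = 0.00492), and the TNF family ligand Tnfsf8 at 3.34, 2.14, 2.69 and 2.71 CPM against 11.2, 15.4, 18.7 and 17.0 CPM (2.54, SE 0.21, adjusted p = 5.55e-05). The St8sia1 call was lost without naive 3 and 4.

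Endothelial markers were lower in 7 of 11 cases and higher in none, with a median of -1.69. Pecam1 was at 75.7, 59.1, 86.3 and 109.2 CPM in naive and 34.1, 29.4, 25.6 and 19.7 CPM in repopulated libraries (-1.57, SE 0.22, adjusted p = 0.00139), and it is also found on some macrophages. Cldn5, a tight junction protein of brain endothelium, was at 56.1, 44.3, 116 and 155 CPM against 21.8, 10.9, 42.2 and 27.2 CPM (-1.84, SE 0.48, adjusted p = 0.0294). The highest values of Cldn5 were in naive 3 and 4. The list had 2 falls when naive 3, naive 4, repopulated 1 or repopulated 4 was left out, 3 without repopulated 2, and 2 without naive 3 and 4, and Cldn5 was lost in each of the first 5. Neuronal, oligodendrocyte, oligodendrocyte precursor, mural cell and red blood cell markers had no called gene. Of 11 astrocyte markers 1 was called, the secreted chaperone Clu at 48.0, 13.7, 56.7 and 18.9 CPM in repopulated and 5.46 to 11.99 CPM in naive libraries (1.86, SE 0.47, adjusted p = 0.0247); it too was highest in repopulated 1 and 3, and its call was lost without either of them or without naive 1, 3 or 4.

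The design also asks whether the response of Het microglia to repopulation differed from that of WT and KO microglia, each with 4 repopulated and 5 naive adult libraries. Of 14473 genes tested for a difference between the Het and WT responses, 0 passed at an adjusted p under 0.05 with edgeR; 1283 had an unadjusted p under 0.05, and DESeq2 called 10. Side by side, Mrc1 was -3.84 (SE 0.39) in Het and -4.06 (SE 0.39) in WT, H2-Aa -4.60 (SE 0.36) and -4.30 (SE 0.35), Ifit2 1.74 (SE 0.18) and 1.62 (SE 0.17), and H2-K1 1.73 (SE 0.16) and 1.35 (SE 0.14). Leaving out WT naive 5 gave 19 calls. A difference that misses the threshold is not shown to be absent.

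Between the Het and KO responses, 132 genes (0.912%) passed, 79 with the Het log2 fold change above the KO one and 53 below. Lag3, an inhibitory receptor for MHC class II, was higher after repopulation in Het (1.09, SE 0.13) and WT (0.99, SE 0.13) and lower in KO (-0.75, SE 0.13), a difference of 1.83 (adjusted p = 1.19e-05). In the Het libraries it went from 460.1, 476, 477 and 449 CPM to 852, 1051, 978 and 1061 CPM. Slamf8, a brake on phagocyte oxidase, had a difference of 1.84 (adjusted p = 5.2e-05), and the sialic acid receptor Siglecf one of 1.41 (adjusted p = 0.00121). The Het groups did not overlap in any of the 3. Itgax rose by 2.14 (SE 0.23) in Het and was at 0.56 (SE 0.21, adjusted p = 0.0855) in KO, a difference of 1.58 (adjusted p = 0.012). B2m rose in both, by 1.38 (SE 0.09) and 0.66 (SE 0.09), and differed by 0.72 (adjusted p = 0.00487). C1qb rose in Het (0.74, SE 0.09) and was at 0.03 (SE 0.08, adjusted p = 0.878) in KO, and differed by 0.71. In the other direction, Ccnd1 was at -0.88 (SE 0.12) in Het and -0.13 (SE 0.11) in KO, and Tgfbi, a matrix protein, was at -1.06 (SE 0.14) and 0.03 (SE 0.13), a difference of -1.09 (adjusted p = 0.00466). Mrc1 was at -3.02 (SE 0.37) in KO, and its difference from Het was not called (-0.82, adjusted p = 0.477).

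These differences have limits of their own. Libraries read as male were 1 of 4 in each Het group, 4 of 5 KO naive, 3 of 4 KO repopulated, 5 of 5 WT naive and 2 of 4 WT repopulated, and a sex term gave 146 Het to KO calls. The protocol puts untreated KO and WT animals on another sequencer than all other samples, without naming libraries; for the naive libraries used here, sequencer and treatment therefore cannot be told apart in KO and WT. Ribosomal protein transcripts in KO naive libraries ranged from 23610 to 47540 CPM, a wider spread than in Het naive ones. The Het to KO count was 66, 71 and 72 without Het repopulated 2, 3 and 4, 80, 43 and 41 without Het naive 2, 3 and 4, 74, 76 and 67 without KO repopulated 1, 2 and 3, and 227 without KO naive 5.

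**Figure D5:**
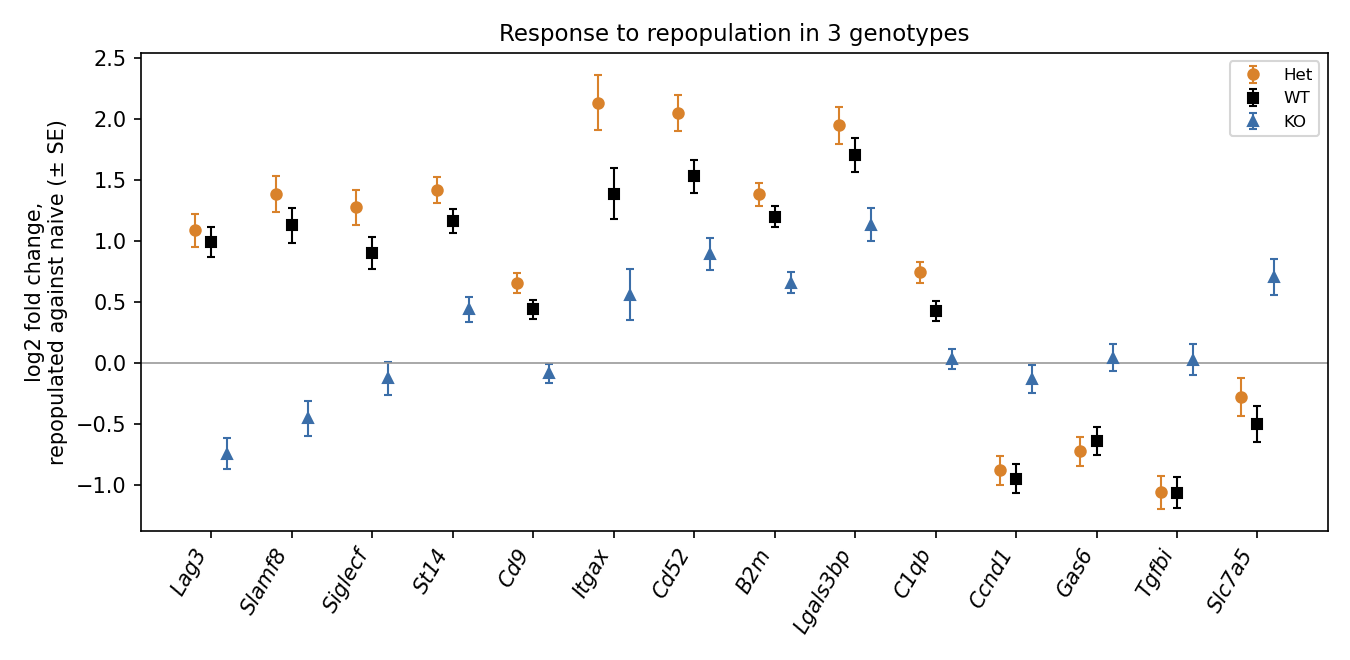
Log2 fold change of repopulated against naive microglia (vertical axis) in Het, WT and KO mice, with SE, for genes whose Het and KO responses differed. Lag3 was at 1.09 in Het, 0.99 in WT and -0.75 in KO. The Het and WT points lie nearer to each other than to the KO point for every gene shown. Because the genes were chosen for a called difference between Het and KO, the distance between those points follows from the choice.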

How the data were processed

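RNA from sorted brain microglia was measured in 64 libraries, of which 8 make up the comparison. The deposited table holds the authors' read counts for 45708 genes. Per the submitters' processing notes, STAR 2.6.1d, Salmon 1.5.2, Trim Galore 0.6.7, bcl2fastq 2.20 and build GRCm38 were used; which tool counted, whether strand was used and how shared reads were divided are not given in the sources used here. Libraries were made from small amounts of total RNA, per the labels' protocols.

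Low counts were filtered with filterByExpr at a minimum of 10 per library and 15 in total, leaving 12988 genes. The 8 libraries were fitted with edgeR's quasi-likelihood test after TMM scaling, with Benjamini-Hochberg adjustment over all genes tested and a threshold of 0.05. SE is the absolute log2 fold change divided by the square root of F. CPM values use TMM factors. Differences between genotype responses came from 1 fit of 14473 genes over the naive and repopulated libraries of Het, WT and KO. These naive libraries had under 1% of counts on Gm26917 and Yam1, a division read from the data and not a labelled batch. A library was read as male where 4 Y-linked genes summed to over 10 CPM, and the floor for 0 was 3 counts per library. The fit was tested on simulated data.

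Genes named are the 10 largest rises and falls with a mean log2 CPM from 3 upward, up to 4 called members per list, 5 per genotype difference, Uqcrfs1 and Csf1r, 119 in all; other list members were chosen after their values were seen. The 35 lists and the members were chosen with earlier results of these data known, and 3 lists (choroid plexus epithelium, ribosomal proteins, small nucleolar RNA hosts) were added after seeing values. Replicates were checked for duplicate libraries (chi-square per degree of freedom 12.5 to 37.9). Alternatives were DESeq2's size factors and Wald test, no filter, other sets of libraries, a replicate block and leaving out libraries. Values of some genes are not reported here. Software was R 4.3.3, edgeR 4.0.16, limma 3.58.1, DESeq2 1.42.0, Python 3.11.15, pandas 2.3.3 and matplotlib 3.10.9.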

Additional observations from a re-analysis of the deposited data

Results flagged for a closer look

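Among 238 sets of 4 values (119 named genes in each Het group), 15 had 1 library far from the other 3; chance alone gives about 1 in 20, and 14 are listed. In naive libraries these were Mrc1 in replicate 2 (318.9 CPM against 475.3 to 496.6 CPM), Itgax in replicate 1 (23.74 against 25.89 to 26.32) and Mylip in replicate 1 (470.4 against 355.7 to 363.1). Nupr1 in naive 1 (8.459 against 6.217 to 6.508 CPM), Ldhb in naive 2 (277.9 against 256.9 to 258.8) and Bcl2a1b in naive 2 (68.9 against 56.91 to 58.94) were the others. In repopulated 4, Uqcrfs1 stood at 36.98 CPM (30.23 to 30.52 in the others), Itgax at 135.4 (101.5 to 106.7), Fosl2 at 40.84 (22.99 to 25.93), Egr2 at 63.86 (26.93 to 30.74) and Bbc3 at 44.93 (29.42 to 31.3). In repopulated 3, Pf4 stood at 3.591 CPM (1.849 to 2.036) and Cx3cr1 at 2828 (3335 to 3374), and in repopulated 2 Ifit2 at 40.8 (49.9 to 50.49).

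The Het response differed from the KO response for 20 of the 119 named genes (edgeR interaction test, adjusted p under 0.05). Over all 14473 genes tested the count was 132 (0.912%). Of the named genes, 5 were named for this very difference and most others for a change in the Het libraries. The share among them is therefore not comparable with that over all genes. Het minus KO on the log2 scale was positive for Slamf8 (1.84), Lag3 (1.83), Itgax (1.58), Siglecf (1.41), Cd52 (1.16), St14 (0.98), Lgals3bp (0.82), Cd9 (0.74), B2m (0.72), Cst3 (0.71), C1qb (0.71), Ctsh (0.62), Tyrobp (0.62), Ctss (0.52), C1qa (0.42) and Ldhb (0.37). It was negative for Tgfbi (-1.09), Slc7a5 (-0.98), Gas6 (-0.77) and Ccnd1 (-0.75).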

How the results depend on the processing

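No gene called in the 8 libraries changed sign under any alternative run, and none of the 117 named called genes did. The 2383 genes called became 3199 with DESeq2's Wald test, 2026 with no filter on low counts, 1014 in the fit of all 64 libraries (943 of the original calls kept) and 895 without naive 3 and 4 (864 kept). Leaving out each replicate gave 1591 to 2212. For Het against WT responses the count was 0, 10 with the Wald test, and 0 to 19 on leaving out each replicate. For Het against KO responses, 132 genes became 376 with the Wald test, 57 with no filter and 86 when only these 2 genotypes were fitted, and 41 to 227 on leaving out each replicate. The cause of these changes was not tested. Pairing by replicate number was not seen in the counts, and the labels do not say whether the numbers denote pairs. Correlations of same-numbered deviations ran from -0.1 to 0.048 over 4 pairs. Of the naive replicates, 1 correlated best with its own number. With the number as a replicate block, 1735 genes were called in Het, 0 for Het against WT and 110 for Het against KO. With 4 libraries a group, genes at a few CPM rest on few counts, since 3 counts amount to 0.192 to 0.254 CPM here.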

Other observations

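RISP Het microglia were also collected during PLX3397 depletion, in 2 libraries of 11800230 and 9468077 counts, which enter no comparison here. The border-associated macrophage marker Mrc1 was at 34.41 and 42.03 CPM, and the MHC class II genes H2-Aa at 14.82 and 14.36 CPM and Cd74 at 129.2 and 94.38 CPM. B2m, Itgax, Ctss, Tyrobp and C1qb lay above their naive ranges in both. B2m was at 2375 and 2357 CPM and Itgax at 119.3 and 96.51 CPM. Ctss was at 9339 and 9252 CPM, Tyrobp at 743.5 and 729.2 CPM and C1qb at 5337 and 4433 CPM. Some other genes that rose after repopulation were nearer to their naive levels: Ifit2 at 19.24 and 16.07 CPM, Axl at 84.86 and 84.49 CPM, H2-Q7 at 22.97 and 18.3 CPM and Cfb at 0.1734 and 0 CPM. The genes given here are examples, and how many behaved in each way was not counted. Ribosomal protein transcripts summed to 28480 and 34500 CPM, between the naive and repopulated ranges. Ccnd1 was at 49.15 and 21.92 CPM. The second library held 4593 CPM of choroid plexus transcripts against 52.44 CPM in the first, and it held both Xist (30.86 CPM) and Y-linked transcripts (85.98 CPM).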
